A study of Mus musculus with 6 samples.

Results

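A set of 40 lysosomal genes, of the 55401 genes counted, was followed in RNA of mouse spinal cord microglia: 11 proteases, 8 glycosidases, 3 sulfatases, 5 lipid hydrolases, 3 soluble proteins of the lumen, 9 membrane proteins and the regulator Tfeb. They were taken by name, through their Ensembl identifiers, and no measured value entered the choice, but earlier results of these data were known. All 40 had enough counts to be tested, among 16248 genes that did. The RNA came from microglia collected with CD11b beads from the cords of untreated mice aged 7 months. One group was non-transgenic (NTg, C57BL/6) and the other heterozygous for 2 alleles at once, the knock-in hATXN2-Q33 (human ataxin-2 with a tract of 33 glutamines) and hTDP-43, human TDP-43, and is here called the mutants; the promoter that drives the human sequences is not given in the sources used here. A library held the pooled cells of 3 cords, so that the 3 libraries of a group drew on 9 animals: NTg 7, 9 and 11, and mutants 8, 10 and 12, as the sample titles number them. The comparison asks whether the lysosomal genes of these cells differ between the genotypes.

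Lysosomes are acidic vesicles in which hydrolases break down protein, sugar chains, sulfated polymers and lipids brought in by endocytosis, phagocytosis and autophagy. Their membrane holds heavily glycosylated proteins, transporters and channels, and many of the genes are switched on by the transcription factor TFEB, which binds E-box letters of the CLEAR element in their promoters. Microglia are the phagocytes of the central nervous system and are rich in lysosomes. Several of the genes are known from inherited storage diseases of the brain, and GRN, which codes for progranulin, from frontotemporal dementia.

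Total counts per library ran from 12553570 to 22854628. All 13 microglia markers, P2ry12, Tmem119, Cx3cr1 and others, were present in every library, summing to 9524 to 13767 CPM (counts per 1000000, on library sizes scaled by the trimmed mean of M-values). Markers of other cells had counts too, none of them 0 in any library, which alone does not show how many such cells were present. Neutrophil markers summed to 56.0 to 1674 CPM, oligodendrocyte markers to 164 to 1604 CPM and endothelial markers to 95.05 to 344 CPM. Border macrophage markers summed to 118 to 167 CPM, astrocyte markers to 100 to 155 CPM and neuron markers to 15.3 to 30.4 CPM. In such bulk RNA, fewer microglia and less lysosomal RNA per cell cannot be told apart.

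The promoters are shown first, because the E-box CACGTG, the centre of the CLEAR element, is a feature many of these genes share and the selection did not use. RefSeq windows on GRCm38.p6, running from 250 bases before to 50 bases after a gene's start, were at hand for 35 of the 40 genes, all but Asah1, Ctsb, Ctsh, Galns and Npc1. CACGTG, which reads the same on both strands, was found in windows of 12 of the 35 (34.3%), against 1221 of 10635 tested genes with a window (11.5%) and 2187 of all 27025 genes with a window (8.09%). The longer TCACGTG, on either strand, was found in 10 (28.6% against 6.81%), and TCACGTGA, which overlaps both, in 5 (14.3% against 2.14%). The longest form searched adds a G before and a C after these letters. It was found in only 1 of the 35, Cln3 (2.86% against 0.79%). The matches in the other genes were of the shorter forms, so they do not show the longest form to be common in these promoters. The windows of the 35 genes had a median GC content of 56.5%, and those of the tested genes 60.3%. A match is only a match of letters. The E-box nearest to the start is printed for each of the 12 genes, with 10 bases on each side, 5′ to 3′ along the gene and with CACGTG in capitals, so that the flanks can be compared.
Ctsa: tgcagatgctCACGTGaccagagcta
Ctsd: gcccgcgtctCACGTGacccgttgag
Ctsf: ccccgtggtcCACGTGcctcgcgtaa
Ctsl: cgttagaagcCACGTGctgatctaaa
Gaa: tctgtgcgatCACGTGtttgactctg
Gla: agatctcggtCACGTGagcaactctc
Glb1: gcttctgagtCACGTGgcctacagag
Naglu: accttcaggtCACGTGgcccgaggtc
Sgsh: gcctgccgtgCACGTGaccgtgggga
Cln3: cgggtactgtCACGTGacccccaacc
Lamp1: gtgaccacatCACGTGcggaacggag
Mcoln1: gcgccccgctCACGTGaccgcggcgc

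Lamp1 stood out by the number of these letters, with 4 E-boxes starting 61, 45, 28 and 15 bases before its start. The 250 bases before that start are printed (chr8:13158911-13159160, plus strand), with each E-box and its TCACGTG form in capitals. Below them is the same stretch of Neu1 (chr17:34931003-34931252, plus strand), which has no CACGTG there. Neu1 had the smallest p of the 40 genes in the comparison of genotypes.
Lamp1: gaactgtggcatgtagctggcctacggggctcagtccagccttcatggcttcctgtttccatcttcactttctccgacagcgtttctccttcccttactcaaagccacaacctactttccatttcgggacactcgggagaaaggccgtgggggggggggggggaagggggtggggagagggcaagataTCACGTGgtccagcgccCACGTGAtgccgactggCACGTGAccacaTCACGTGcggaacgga
Neu1: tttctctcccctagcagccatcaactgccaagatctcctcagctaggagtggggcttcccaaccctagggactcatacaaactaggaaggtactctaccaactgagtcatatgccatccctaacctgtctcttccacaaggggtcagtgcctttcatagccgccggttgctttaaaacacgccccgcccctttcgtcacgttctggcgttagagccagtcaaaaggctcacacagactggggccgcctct

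Levels were compared between genes per length, as TPM (transcripts per 1000000, from counts and the exon length in the table). Cathepsins held the top: Ctss, a cysteine protease that microglia are known for, averaged 2260 TPM, rank 14 of the tested genes, and Ctsd, the main aspartic protease, 925 TPM, rank 31. They were followed by Psap, the precursor of the saposins that help lipid enzymes, with 351 TPM, and by the cysteine proteases Ctsz with 253 and Ctsb with 182 TPM. Of the membrane proteins, Laptm5, a protein of immune cells that lowers surface receptors, had 198 TPM, Lamp1, a main glycoprotein of the membrane, 150.2 TPM and the macrophage protein Cd68 137 TPM. Progranulin, Grn, had 146 TPM. Together 9 of the genes were above 100 TPM, 18 between 10 and 100 TPM, 12 between 1 and 10 TPM and 1 below.

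The sugar and sulfate enzymes were lower. Hexa, a subunit of beta-hexosaminidase, led the glycosidases with 97.8 TPM, ahead of the mannosidase Man2b1 with 48.1 TPM, and the other 6 lay between 5.34 and 15.98 TPM. The sulfatases had 7.46 TPM (Ids, iduronate), 2.72 TPM (Sgsh, heparan sulfamidase) and 2.51 TPM (Galns, galactosamine). Among lipid enzymes the ceramidase Asah1 had 30.1 TPM and the thioesterase Ppt1 24.2 TPM, while Lipa, which frees cholesterol from its esters, had 5.19 TPM, the sphingomyelinase Smpd1 3.75 TPM and Galc, which degrades myelin galactolipid, 1.32 TPM. Tfeb had 4.40 TPM. Ctsk, the collagenase of osteoclasts, was near the floor with 0.36 TPM and 2 to 25 counts per library. Lengths are those of all annotated exons of a gene, which lowers the TPM of genes with long, little-used exons. Exons of 3 of the genes overlap another gene on the same strand, over 34.4% of their bases in Ctsd, 6.09% in Ctsl and 5.49% in Glb1, and the authors' counting gave such fragments to both genes.

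**Figure D1:**
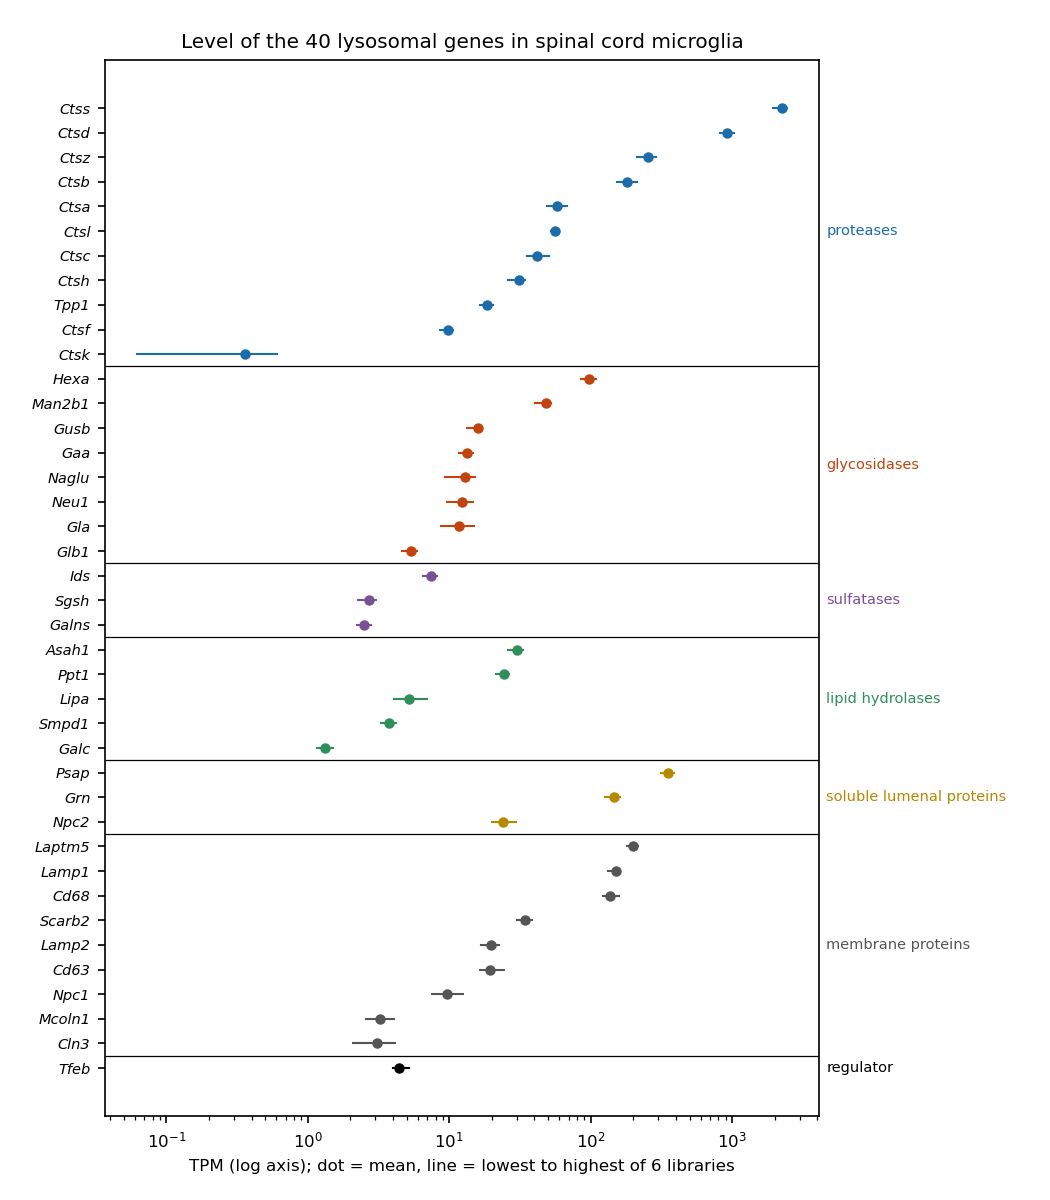
Mean TPM of each of the 40 genes (dots, log axis) with the lowest and highest of the 6 libraries (lines), by role. Ctss at 2260 TPM and Ctsd at 925 TPM lead, and Ctsk at 0.36 TPM is lowest.

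Between the genotypes the lysosomal genes lay slightly lower in the mutants, and none passed the test. In edgeR's quasi-likelihood test, with p-values adjusted by Benjamini and Hochberg's method, 0 of 40 had an adjusted p under 0.05, the smallest being 0.9996, and over all tested genes 0% passed in either direction. DESeq2 also called 0 of the 40, with 0.0431% of the genes it adjusted called. An unadjusted p under 0.05 was reached by 1 of the 40 (2.5%), Neu1, on the lower side, against 2.26% of all genes (1.4% higher and 0.862% lower), a share near that background. The log2 fold change, mutants minus NTg, was negative for 35 of 40 genes (87.5%), against 48% of all genes. The median was -0.08 for the 40 and 0.01 for all genes, with values from -0.28 to 0.05. Among the 13 microglia markers, only 3 had a positive log2 fold change, and their median was -0.026. Of the 40, 39 had a 95% interval that includes 0, with a median half-width of 0.27. For 4 genes, all lower (10%), no mutant library reached the NTg range, where 3.58% of all genes were lower without overlap, 3.27% higher and 6.85% either. The genes share their libraries, so these counts are not 40 separate observations. Without mutant 10 the median was -0.014 and 24 of 40 were negative, and without NTg 11 these were -0.035 and 24. Without mutant 12 the median was -0.14 and 38 were negative.

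**Figure D2:**
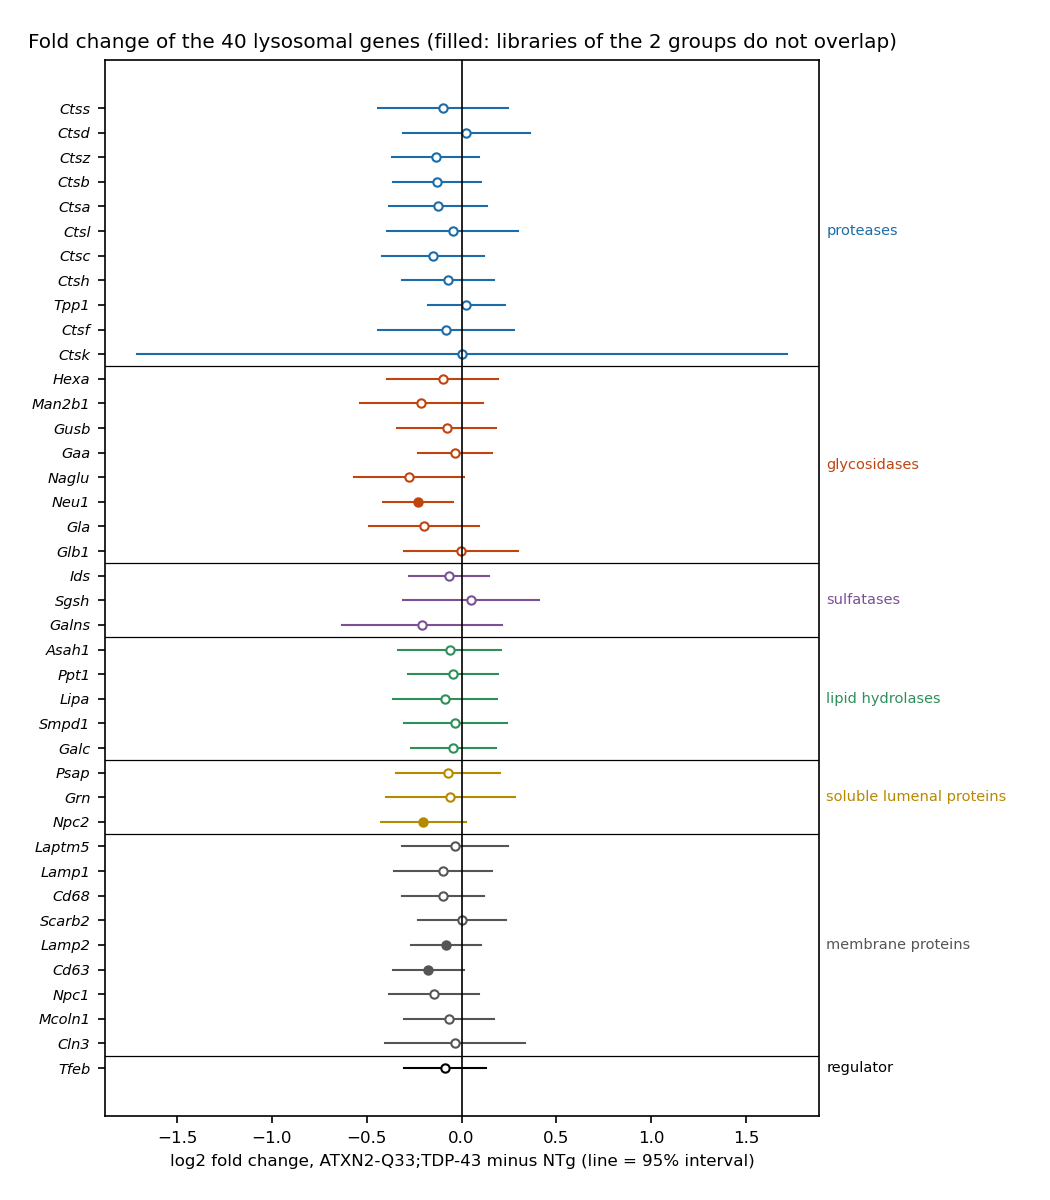
Log2 fold change of each gene, mutants minus NTg, with its 95% interval; filled dots are the 4 genes whose libraries do not overlap between groups. Values run from -0.28 for Naglu to 0.05 for Sgsh, and the interval of Neu1 alone lies below 0.

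Glycosidases, which trim sugar chains from glycoproteins and glycolipids, had a median of -0.15, with 8 of 8 genes negative, 1 at an unadjusted p under 0.05 and 0 past the adjusted test. That median was -0.054 without NTg 11 and -0.048 without mutant 10. Of all tested genes, 48% were negative and 2.26% had an unadjusted p under 0.05. Neu1, the sialidase that removes terminal sialic acids (ENSMUSG00000007038, mm10 chromosome 17, 34931253 to 34935953), measured 82.6, 83.3 and 85.6 CPM in NTg 7, 9 and 11 and 68.7, 70.0 and 75.9 CPM in mutants 8, 10 and 12. All mutant libraries lay below all NTg libraries, and the NTg values were close together. The group values were 83.8 ± 1.54 and 71.5 ± 3.82 CPM (SD, n = 3 each), and the log2 fold change was -0.23 (SE 0.08; 95% CI -0.41 to -0.04). Its edgeR p was 0.0205 before adjustment and 0.9996 after it, and it lay between -0.27 and -0.19 under 15 other settings. Naglu, which removes N-acetylglucosamine from heparan sulfate (ENSMUSG00000001751, mm10 chromosome 11, 101070012 to 101077672), measured 69.0, 55.7 and 66.3 CPM in NTg libraries, and 47.5, 48.6 and 61.4 CPM in mutant libraries. Mutant 12 lay within the NTg range and the other mutants below it. Its log2 fold change was -0.28 (SE 0.13; 95% CI -0.56 to 0.01).

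Gla, the alpha-galactosidase that is short in Fabry disease, had 72.6, 73.7 and 60.1 CPM in NTg libraries, and 60.1, 68.5 and 51.1 CPM in mutant libraries. The groups overlapped, with a log2 fold change of -0.20 (SE 0.13), which was -0.094 without mutant 12 and -0.31 without mutant 10. Hexa had 321, 326 and 388 CPM in NTg libraries, and 330.2, 270.4 and 366 CPM in mutant libraries. Its groups overlapped, with mutant 10 below every other library, and it had a log2 fold change of -0.10 (SE 0.13). Man2b1, which trims mannose, had -0.21 (SE 0.14), and the glucuronidase Gusb, the glycogen enzyme Gaa and the beta-galactosidase Glb1 ran from -0.08 to -0.01.

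Proteases had a median of -0.08, with 8 of 11 negative, against 48% of all tested genes, and 0 without overlap. Ctss (ENSMUSG00000038642, mm10 chromosome 3, 95526786 to 95556403) measured 5236, 4852 and 6205 CPM in NTg libraries, and 5100.1, 4214 and 5927 CPM in mutant libraries. Within each group the spread was wider than the distance between the groups, with means of 5431 ± 697 and 5080.3 ± 857 CPM (SD, n = 3 each), and the log2 fold change was -0.10 (SE 0.15; 95% CI -0.44 to 0.25). The sign of Ctss changed without NTg 11 (0.015) or mutant 10 (0.022), and the median of the proteases was 0.015 without NTg 11.

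Ctsb had 1913, 1948 and 1999 CPM in NTg libraries, and 1792, 1613 and 1949.7 CPM in mutant libraries. Only mutant 12 reached into the NTg range, and the log2 fold change was -0.13 (SE 0.10). Ctsc, which activates serine proteases of immune granules, had 398, 441 and 463 CPM in NTg libraries, and 396, 333 and 443 CPM in mutant libraries, giving a log2 fold change of -0.15 (SE 0.12). Ctsz had 659, 632 and 660.1 CPM in NTg libraries, and 592, 528 and 655 CPM in mutant libraries, giving a log2 fold change of -0.14 (SE 0.10). For these 3 genes mutant 10 was the lowest library, and without it the log2 fold changes of Ctsb, Ctsc and Ctsz were -0.063, -0.049 and -0.061. Without mutant 12 they were -0.20, -0.25 and -0.22. The other cathepsins were the carboxypeptidase Ctsa with -0.13, Ctsf with -0.08, the aminopeptidase Ctsh with -0.07, Ctsl with -0.05 and Ctsd with 0.02, and the tripeptidyl peptidase Tpp1 had 0.03. Ctsk had 0.00 with an interval from -1.71 to 1.71, too wide at its counts to place it.

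Lipid hydrolases had a median of -0.04 with 5 of 5 negative, against 48% of all tested genes, and 0 without overlap. The median was 0.036 without mutant 10. Lipa had 56.1, 71.7 and 54.4 CPM in NTg libraries, and 53.2, 61.3 and 56.8 CPM in mutant libraries. NTg 9 and mutant 10 were its highest libraries, unlike most of the genes, and its log2 fold change was -0.09 (SE 0.12). Asah1 had 168, 170.5 and 195 CPM in NTg libraries, and 170.5, 146 and 195 CPM in mutant libraries, giving a log2 fold change of -0.06 (SE 0.12). Galc stayed within 31.5 to 35.0 CPM in all 6 libraries, a log2 fold change of -0.04 (SE 0.10). Smpd1 had -0.03 and Ppt1 -0.04. The sulfatases had a median of -0.07, which was -0.011 without mutant 10, -0.10 without NTg 9 and -0.12 without mutant 12. Galns had 12.6, 10.9 and 13.2 CPM in NTg libraries, and 12.3, 8.41 and 11.1 CPM in mutant libraries, giving a log2 fold change of -0.21 (SE 0.19). Ids had 70.4, 63.0 and 65.1 CPM in NTg libraries, and 63.5, 57.9 and 67.8 CPM in mutant libraries, giving a log2 fold change of -0.07 (SE 0.09). Sgsh had 16.9, 20.2 and 22.97 CPM in NTg libraries, and 19.6, 18.7 and 24.0 CPM in mutant libraries, giving a log2 fold change of 0.05 (SE 0.16). The groups of all 3 sulfatases overlapped.

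The 3 soluble proteins of the lumen were all negative, with a median of -0.07, which was 0.037 without mutant 10. Npc2, which hands cholesterol to the membrane protein Npc1 (ENSMUSG00000021242, mm10 chromosome 12, 84754562 to 84773152), measured 230.0, 242 and 244 CPM in NTg libraries, and 210.4, 183 and 228 CPM in mutant libraries. The groups did not overlap, although NTg 7 and mutant 12 were close. The log2 fold change was -0.20 (SE 0.10; 95% CI -0.43 to 0.02). Psap had 1673, 1615 and 1763 CPM in NTg libraries, and 1666, 1349 and 1791 CPM in mutant libraries, so mutant 12 was its highest library and mutant 10 its lowest. Its log2 fold change was -0.07 (SE 0.12). Grn had 896, 778 and 981 CPM in NTg libraries, and 846, 689 and 1014 CPM in mutant libraries, the same order at both ends, with a log2 fold change of -0.06 (SE 0.15).

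Membrane proteins had a median of -0.08, with 8 of 9 negative and 2 lower without overlap. Of all tested genes, 48% were negative and 3.58% were lower without overlap. Cd63, a tetraspanin of late endosomes (ENSMUSG00000025351, mm10 chromosome 10, 128900989 to 128912822), measured 126, 135 and 121 CPM in NTg libraries, and 117, 111 and 109.6 CPM in mutant libraries. The mutants were lower throughout, with a log2 fold change of -0.18 (SE 0.08; 95% CI -0.36 to 0.01). Lamp2, the partner of Lamp1 that also serves chaperone-mediated autophagy (ENSMUSG00000016534, mm10 chromosome X, 38401357 to 38456454), measured 344, 325 and 314 CPM in NTg libraries, and 310.1, 307 and 311 CPM in mutant libraries. The mutant values were tight and just under NTg 11, with a log2 fold change of -0.08 (SE 0.08). For Neu1, Npc2, Cd63 and Lamp2 the exact two-sided permutation p was 0.1, the smallest that 3 against 3 libraries allow. Every gene without overlap has this p, so it only restates that the groups did not overlap.

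Npc1, the cholesterol exporter, had 189, 213 and 173 CPM in NTg libraries, and 164, 189 and 165 CPM in mutant libraries, giving a log2 fold change of -0.15 (SE 0.11) with overlap. Cd68 had 309.5, 301 and 296 CPM in NTg libraries, and 314, 257 and 276 CPM in mutant libraries, so that its highest and its lowest library were both mutants. Its log2 fold change was -0.10 (SE 0.10). Laptm5 had 1280.1, 1230.5 and 1384 CPM in NTg libraries, and 1305, 1064 and 1429 CPM in mutant libraries, giving a log2 fold change of -0.04 (SE 0.12) with mutant 12 highest and mutant 10 lowest. Lamp1 had -0.10, the calcium channel Mcoln1 -0.07, Cln3 of juvenile Batten disease -0.03 and Scarb2, an abundant glycoprotein of the membrane, 0.00. Tfeb had 42.6, 44.1 and 44.1 CPM in NTg libraries, and 43.5, 37.3 and 42.5 CPM in mutant libraries. Mutant 10 was low and the other 5 libraries were close together, with a log2 fold change of -0.09 (SE 0.10).

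The 40 genes summed to 21604, 20559 and 24106 CPM in NTg 7, 9 and 11 and to 21134, 17996 and 23785 CPM in mutants 8, 10 and 12, with means of 22089.7 ± 1823 and 20972 ± 2898 CPM (SD, n = 3 each), a difference smaller than either SD. They took 1.89% to 2.32% of a library's counts. Mutant 10 was the lowest of the 6 libraries for 27 of the 40 genes and the highest for 0. NTg 11 was the highest for 17 and mutant 12 for 10. Mutant 10 lay under all NTg libraries for 30 genes, mutant 8 for 15 and mutant 12 for 8. By role, mutant 10 was lowest for 10 of 11 proteases, 3 of 3 soluble proteins, 4 of 8 glycosidases and 4 of 9 membrane proteins.

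**Figure D3:**
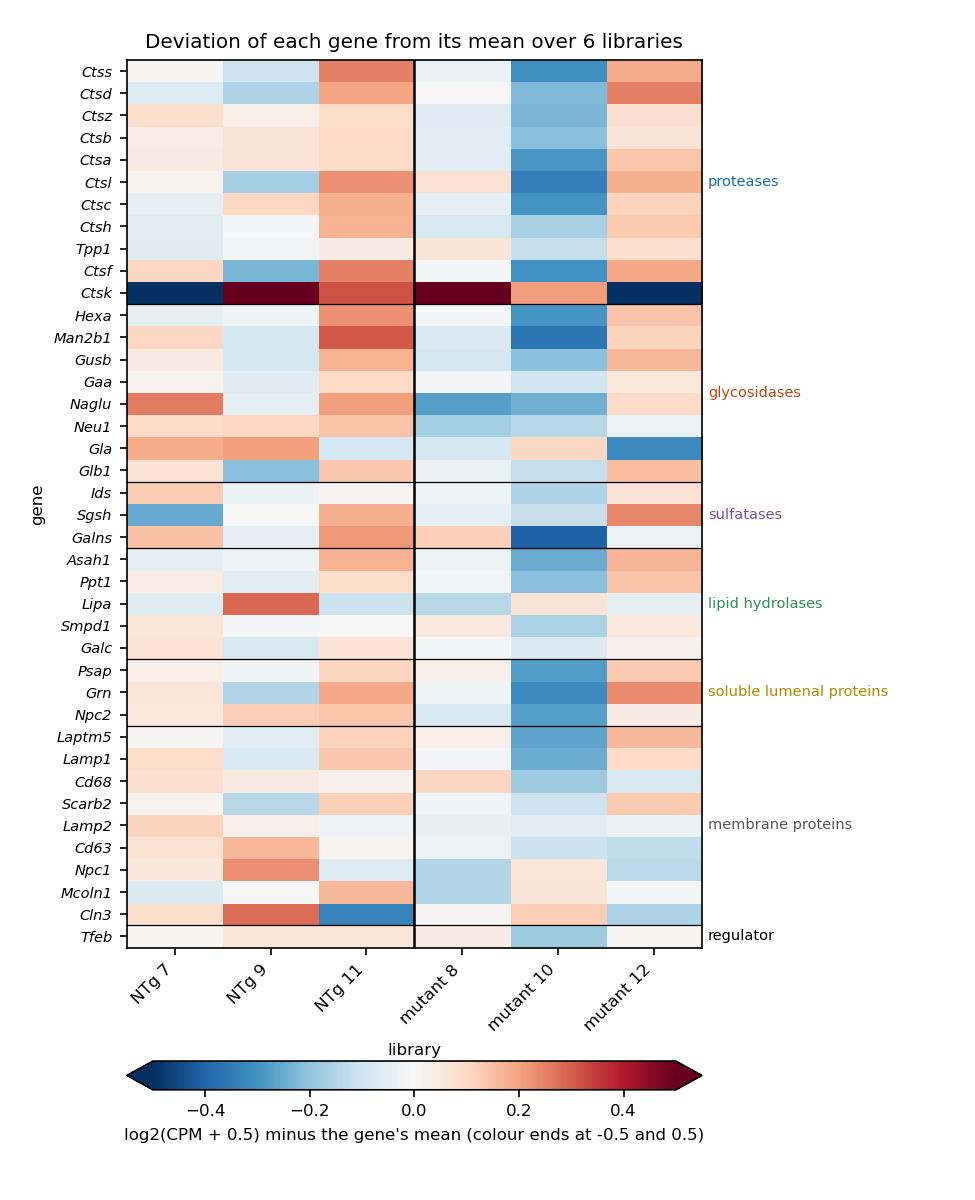
Deviation of each gene's log2(CPM + 0.5) from its mean over the 6 libraries (colour, red higher and blue lower), by role, NTg left and mutants right. Mutant 10 is blue for most genes, with a median of -0.19, and NTg 11 and mutant 12 are mostly red, with medians of 0.13 and 0.09.

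The abundant genes followed this order most. Of the 20 genes above 19.5 TPM, the median of the 40, mutant 10 was lowest for 19, with a median deviation of -0.26 on the log2 scale, and of the 20 others for 8, with -0.12. In 30 genes NTg 9 was below NTg 11 and mutant 10 below mutant 12. Ctsk, Gla, Lipa, Npc1, Cln3 and Cd63, singled out after their values were seen, had the reverse order in both groups. Cln3 had 31.1, 35.8 and 23.2 CPM in NTg libraries, and 29.5, 32.0 and 26.4 CPM in mutant libraries.

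Microglia markers were lowest in mutant 10 too, and highest in mutant 12 and NTg 11. Their 13 genes summed to 11720.1, 10697 and 13234 CPM in NTg 7, 9 and 11 and to 11713, 9524 and 13767 CPM in mutants 8, 10 and 12. The sum of the lysosomal genes varied 1.34-fold over the libraries, that of the markers 1.45-fold and their ratio 1.11-fold. The ratio was 1.84, 1.92 and 1.82 in NTg and 1.80, 1.89 and 1.73 in the mutants, with overlap. With libraries scaled to these markers in place of all genes, the median log2 fold change of the 40 was -0.04, 30 of 40 were negative and 0 passed the test. Markers of oligodendrocytes were highest in NTg 9 and mutant 10 (1604 and 1065 CPM, against 164 to 440 CPM in the other libraries), and so were those of endothelial cells (339 and 344 CPM, against 95.05 to 178 CPM). Neutrophil markers were highest in mutants 8 and 10 (1674 and 1079.8 CPM) and lowest in mutant 12 (56.0 CPM). Monocyte markers were also highest in mutants 8 and 10 (220.5 and 222 CPM) and lowest in mutant 12 (60.9 CPM), with 102 to 121 CPM in NTg libraries. Ependymal markers were highest in mutant 10 (69.4 CPM, against 12.2 to 33.8 CPM in the other libraries). The part of these cells in the levels of the lysosomal genes was not tested. The column names call the alignments of NTg 7 and 9 combined. This mark is on no mutant library, and what was combined is not stated. Fitted with that mark as a covariate, which leaves NTg 11 as the sole NTg library to compare, the median was -0.16, 38 of 40 were negative and 0 passed.

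**Figure D4:**
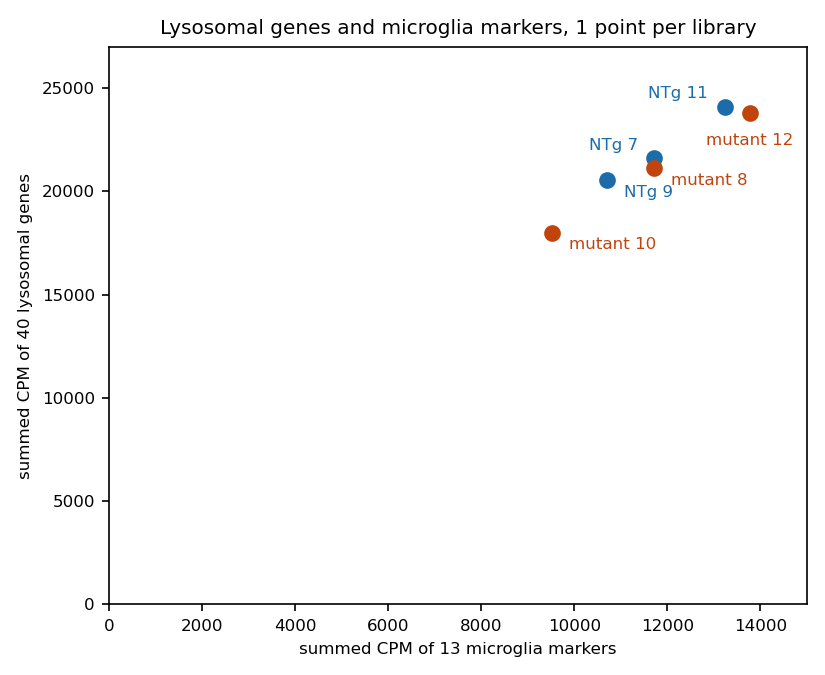
Summed CPM of the 40 lysosomal genes against summed CPM of 13 microglia markers, 1 point per library, with both axes starting at 0; blue is NTg and orange-red the mutants. Mutant 10 is lowest on both axes (9524 and 17996 CPM), and NTg 11 and mutant 12 are at the top of both.

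A further 92 lysosomal genes outside the 40, also chosen with earlier results of these data known, were read in the same fit. Of these, 88 were tested: 0 passed the adjusted test, 58 were negative (65.9%, against 48% of all tested genes) and the median was -0.05. That median was -0.012 without NTg 11 and -0.025 without mutant 10, but -0.098 without NTg 9 and -0.10 without mutant 12. An unadjusted p under 0.05 was reached by 4 (4.55%), all lower, against 0.862% lower and 2.26% in either direction among all tested genes. Lower without overlap were 12 (13.6%, against 3.58%), and higher without overlap 0 (against 3.27%). The genes share the libraries of the 40, so these counts are not separate observations. The 4 with an unadjusted p under 0.05 were Rragc, Dpp7, Scpep1 and Tmem192. Rragc, a GTPase that brings nutrient signals to mTORC1 and holds TFEB at the lysosome, had 127, 126 and 124 CPM in NTg libraries, and 107, 102 and 105 CPM in mutant libraries. The values were tight in both groups and apart, with a log2 fold change of -0.26 (SE 0.08, edgeR p 0.00762 before adjustment). Flcn, which acts on Rragc, had -0.16 (SE 0.08), also without overlap, among 19 regulators with a median of -0.10 and 13 negative.

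Among other proteases the peptidases Dpp7 and Scpep1 had -0.30 (SE 0.12) and -0.21 (SE 0.09), both without overlap, with 5 of 8 tested negative. Among other membrane proteins Tmem192 and the ion channel Tmem175 had -0.48 (SE 0.21) and -0.34 (SE 0.15), with 15 of 23 negative. Of the other glycosidases, 5 of 10 were negative, with the hyaluronidase Hyal2 at -0.23 (SE 0.32). Of the sulfatases and their partners, 4 of 6 were negative, with Arsa, the arylsulfatase of metachromatic leukodystrophy, at -0.27 (SE 0.14) and Hgsnat at -0.20 (SE 0.13). Of lipid enzymes and phosphatases, 7 of 9 were negative, with Smpdl3a at 0.24 (SE 0.16) and the ganglioside activator Gm2a at -0.11 (SE 0.11). Of the sorting genes, 6 of 9 were negative, with the mannose 6-phosphate receptor M6pr at -0.14 (SE 0.08) and Gnptg at -0.27 (SE 0.19). The cathepsin inhibitors Cstb and Cst7 had -0.27 (SE 0.13) and -0.17 (SE 0.17), with 3 of 4 negative.

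The 12 genes with CACGTG in their window had a median log2 fold change of -0.06, and the 23 with a window but without these letters -0.08. Of the roles, 4 of 9 proteases and 4 of 8 glycosidases with a window held the letters, 3 of 8 membrane proteins, 1 of 2 sulfatases and none of the 4 lipid hydrolases or 3 soluble proteins. Of the most abundant genes, Ctsd and Lamp1 were among the 12 and Ctss and Psap were not. The 4 genes without overlap between the groups were not among the 12.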

How the data were processed

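RNA of 6 libraries (3 NTg, 3 ATXN2-Q33;TDP-43) went into stranded libraries after ribosomal depletion, per the labels' protocols. The submitters' processing notes name Trim Galore 0.4.1, FastQC, TopHat2, mm10 and DESeq2. The authors deposited raw fragment counts per gene from featureCounts 1.6.1 (strand setting 2, GENCODE M25), per the file headers; fragments over several genes count for each, and reads with several alignments were not counted. The table's gene length, also deposited, is in bases. Another 6 count columns, of other samples, stayed unused.

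Symbols were matched by Ensembl identifier (55141 of 55401 genes). Genes passing filterByExpr (minimum count 10; 16248) were tested in R 4.3.3 with edgeR 4.0.16 (TMM, robust quasi-likelihood fit, no covariate), with Benjamini-Hochberg over all genes, threshold 0.05. Standard errors come from the fold change and the F statistic. CPM uses TMM-scaled sizes; exact permutation tests and deviations use log2(CPM + 0.5). Alternatives included DESeq2 1.42.0 and voom of limma 3.58.1. The fit was tested on simulated counts with changes larger than those of these genes and no shift shared within a library. That test does not speak to changes as small as theirs. Members and lists were chosen with earlier results of these data known. Full values are given, in each role of over 3 genes, for the most abundant gene, the 3 with the smallest p and those without overlap, and in smaller roles for every gene; each further list is represented by its 2 smallest p, of which 1 gene is not reported here. Cln3, the library values of Rragc and other values beyond this were named after they were seen. Replicates are separate pools of animals.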

Additional observations from a re-analysis of the deposited data

How the results depend on the processing

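None of the 40 genes passed the test under any of 15 alternatives (normalization, test, filter, covariate, left-out libraries) or at an adjusted p of 0.1; over all genes 6 passed without a filter, 7 with DESeq2 and 0 to 2 when 1 library was left out (2 without mutant 12). Of the 40 genes, 18 kept their sign in every alternative, among them Neu1, Naglu, Npc2, Cd63 and Lamp2, and 22 changed it in at least 1. Scaled to microglia markers, the median of membrane proteins was -0.037 and the log2 fold change of Galc 0.0037. With the combined alignments as a covariate, the median of the further lysosomal genes was -0.11, Sgsh had -0.14 and Lipa 0.069, and Gla, Npc1 and Lamp2 moved to -0.0060, -0.00058 and -0.021.

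Over the 6 fits that left out 1 library, log2 fold changes ran from -0.22 to 0.022 for Ctss, -0.20 to 0.013 for Hexa, -0.070 to 0.17 for Sgsh, -0.16 to 0.045 for Lipa, -0.17 to 0.038 for Asah1, -0.16 to 0.037 for Psap, -0.20 to 0.072 for Grn and -0.13 to 0.074 for Laptm5. Ranges without a sign change were -0.20 to -0.063 for Ctsb, -0.25 to -0.049 for Ctsc, -0.22 to -0.061 for Ctsz, -0.31 to -0.094 for Gla, -0.33 to -0.069 for Galns, -0.12 to -0.011 for Ids, -0.093 to -0.013 for Galc, -0.28 to -0.12 for Npc2, -0.22 to -0.066 for Npc1, -0.18 to -0.036 for Cd68 and -0.13 to -0.023 for Tfeb. Medians ran from -0.20 to 0.015 for proteases (highest without NTg 11), -0.20 to -0.048 for glycosidases, -0.12 to -0.011 for sulfatases, -0.084 to 0.036 for lipid hydrolases and -0.20 to 0.037 for soluble proteins (these 4 highest without mutant 10). The causes were not tested. No paired analysis was run, because the groups share no replicate number and no label ties a mutant library to an NTg library. Pairing by neighbouring numbers (7 with 8, 9 with 10, 11 with 12) would rest on sample order and was not tested. In each such pair the lysosomal sum was lower in the mutant (NTg first: 21604 and 21134, 20559 and 17996, 24106 and 23785 CPM). Its ratio to the marker sum was lower too (1.84 and 1.80, 1.92 and 1.89, 1.82 and 1.73). The marker sum itself was higher in mutant 12 than in NTg 11 (13767 and 13234 CPM). With 3 libraries a group, half-widths of the 95% intervals ran from 0.18 to 1.71, the widest for Ctsk at 2 to 25 counts.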
